A study of Mus musculus with 75 samples.

Results

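The genes described here encode the lamins, proteins anchored in the nuclear envelope and the HMGB chromatin proteins. They are Lmna, Lmnb1, Lmnb2, Lbr, Tmpo, Emd, Sun1, Sun2, Hmgb1 and Hmgb2, 10 of the 24984 genes in each count table. They were chosen by name, as a set known for changes in senescence, and not from a measured value. Earlier results of these data were known when they were chosen. Each was followed in 44 RNA-seq libraries of mouse skin fibroblasts. Their promoters were followed in 13 ATAC-seq samples, an assay that maps open chromatin by where a transposase can insert.

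The study followed C57BL/6 skin fibroblasts through replicative senescence, the arrest of dividing cells after serial passaging. Untreated cells of 2-month-old female mice were collected early, at the first passage (P1), and then at P3, P5 or P7, where the number is the passage. Each passage has 4 RNA-seq libraries, and the ATAC-seq samples number 4 at P1 and 3 at every later passage. The study then changed the level of 3 transcription factors. The groups named here for them all carried a lentivirus, and the methods state that fibroblasts of 2-month-old and of newborn mice were used, without saying which library came from which.

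In the group E2f4_OE (2 libraries), pre-senescent cells of passage 4 expressed E2f4 from a vector switched on by doxycycline, and its control E2f4_OE_control (2 libraries) expressed EGFP from the vector. In the knockdowns, cells carried a short hairpin RNA and were selected with puromycin. They were E2f4_sh1, Tead1_sh3, Tead1_sh4, Atf3_sh5 and Atf3_sh6, each of 3 libraries. Each of these 3 experiments had its own control of 3 libraries with a non-targeting hairpin, named E2f4_nt, Tead1_nt and Atf3_nt. Cells of P3 were used for the E2f4 knockdown and pre-senescent cells for the Atf3 knockdown. The 2 Tead1 hairpins target overlapping sites. The paper speaks of 3 independent series of samples for its DNA methylation data. It does not say so of the RNA-seq or ATAC-seq replicates, or that replicates came from separate animals or cultures. The p-values therefore measure the spread between these samples, which may be technical.

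The nuclear lamina is a meshwork of lamin filaments under the inner nuclear membrane. A-type lamins are made from Lmna and B-type lamins from Lmnb1 and Lmnb2, and the lamina holds heterochromatin at the nuclear edge together with membrane proteins such as the lamin B receptor (Lbr), LAP2 (Tmpo) and emerin (Emd). SUN1 and SUN2 cross the inner membrane and join the lamina to the cytoskeleton through the LINC complex, and HMGB1 and HMGB2 are abundant proteins that bend DNA. Loss of lamin B1 and of HMGB proteins from the nucleus is widely used as a marker of senescent fibroblasts.

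The sequences of 5 promoters are shown here, chosen among the genes with a promoter sequence in the RefSeq table. Hmgb2, Tmpo and Lbr fell through the passages, Lmnb2 fell too and holds an E2F match, and Lmna did not pass the test. Lmnb1 had no entry in that table, so its promoter is not shown and was not searched for these letters. Each is the 250 bases before a start site, read 5′ to 3′ on the strand of the gene, from RefSeq on GRCm38.p6. Hmgb2 is at chr8:57511593-57511842 on the plus strand. The others are on the minus strand, with Tmpo at chr10:91171620-91171869, Lbr at chr1:181842402-181842651, Lmnb2 at chr10:80918246-80918495 and Lmna at chr3:88503353-88503602. Capitals mark matches to the E2F letters (the motif TTGGCGC, its variant TTCCCGC, the variant TTCGCGC or the variant TTGCCGC), to the cell cycle homology region CHR (TTTGAA or its variant TTCGAA) and to the CCAAT box (CCAAT), each on either strand.
Hmgb2: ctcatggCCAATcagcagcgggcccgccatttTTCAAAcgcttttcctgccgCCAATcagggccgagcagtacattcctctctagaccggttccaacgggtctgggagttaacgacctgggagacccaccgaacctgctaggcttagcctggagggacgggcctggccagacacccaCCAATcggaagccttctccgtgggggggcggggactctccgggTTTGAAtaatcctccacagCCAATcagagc
Tmpo: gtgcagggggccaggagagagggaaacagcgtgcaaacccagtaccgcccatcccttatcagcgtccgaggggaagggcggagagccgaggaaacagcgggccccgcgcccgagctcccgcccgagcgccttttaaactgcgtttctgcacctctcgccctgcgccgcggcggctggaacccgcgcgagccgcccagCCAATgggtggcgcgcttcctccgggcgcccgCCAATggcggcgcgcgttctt
Lbr: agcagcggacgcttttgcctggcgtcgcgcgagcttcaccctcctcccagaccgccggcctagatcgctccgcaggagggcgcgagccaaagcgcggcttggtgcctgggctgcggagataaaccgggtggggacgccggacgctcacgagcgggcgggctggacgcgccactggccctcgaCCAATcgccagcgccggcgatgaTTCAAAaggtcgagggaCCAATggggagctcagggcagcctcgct
Lmnb2: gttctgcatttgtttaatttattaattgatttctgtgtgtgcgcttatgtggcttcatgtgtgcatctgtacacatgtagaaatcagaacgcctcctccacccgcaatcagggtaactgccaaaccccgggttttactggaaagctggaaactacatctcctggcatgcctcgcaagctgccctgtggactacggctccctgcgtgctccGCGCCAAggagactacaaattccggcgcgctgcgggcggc
Lmna: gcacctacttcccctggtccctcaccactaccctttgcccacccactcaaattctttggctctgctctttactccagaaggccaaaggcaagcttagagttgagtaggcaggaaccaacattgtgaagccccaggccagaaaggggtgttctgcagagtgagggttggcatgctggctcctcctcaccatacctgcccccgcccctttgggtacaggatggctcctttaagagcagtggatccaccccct

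These promoters differ in the letters they hold. Hmgb2 has 4 CCAAT boxes, which begin at positions -243, -198, -73 and -11 from its start site, and 2 CHR matches. Lbr has 2 CCAAT boxes and a CHR match between them, and Tmpo has 2 CCAAT boxes at this start site. Lmnb2 holds 1 E2F match and Lmna none of the 3 in this stretch. In windows of 300 bases, which reach 50 bases past the start, 9 of the 10 genes (all but Lmnb1) were matched to the RefSeq table. They had 14 start sites in all. A CCAAT box was found in 9 of these 14 promoters (8 genes), against 37.4% of 32851 promoters of all genes. The 8 genes were Lmna (at its other start site), Lbr, Tmpo, Emd, Sun1, Sun2, Hmgb1 and Hmgb2. They thus include Lmna, Emd and Sun1, which did not pass the test from P1 to P7, and leave out Lmnb2, which fell. A CHR match was found in 4 of the 14 (Lbr, Tmpo, Sun2 and Hmgb2), against 19.2% of all promoters, and an E2F match in 2 (Lmnb2 and the second start of Tmpo), against 9.57%. The letters of the GC box (GGGCGG) were found in 9, against 35.7%. TEAD letters (GGAATG) were found in 4, against 14.7%, and those of AP-1 (TGAGTCA) in 1, that of Lmna, against 5.2%. The GC content of the 14 promoters was 45.3% to 77%, and most lay above the median of 52.7% of all promoters. The part of base composition in these shares was not tested. A match is a stretch of letters and not a measured binding site.

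Levels are given as CPM, read counts scaled to a common library size after TMM correction, and a gene passed the test with a Benjamini-Hochberg adjusted p under 0.05 over all genes of the experiment in edgeR's quasi-likelihood test. All 10 genes were abundant enough to be tested in every experiment. Total counts were 13430229 to 15725823 per passage library and 9147324 to 27552949 over all 44 libraries. The fibroblast marker list (8 genes, none at 0) summed to 21360 to 22610 CPM at P1 and to 27460 to 34910 CPM later. Most lists of markers of other cells were highest at P1. The macrophage list (10 genes) summed to 336.9 to 525 CPM at P1 against 20.16 to 64.06 CPM later, and the keratinocyte list (9 genes) to 59.34 to 375.6 against at most 8.239 CPM. The endothelial list (6 genes) fell from 150.1 to 164.8 CPM at P1 to 7.328 to 10.03 CPM at P7, with no gene at 0 in every library. The muscle list (9 genes) summed to 168.7 to 266 CPM at P1 and 31.77 to 112.3 later, and the adipocyte list (5 genes) to 44.58 to 58.38 and at most 6.448 CPM. The Schwann cell and melanocyte list (7 genes) ran the other way, with 36.03 to 44.92 CPM at P1, 62.35 to 83.75 at P3, 47.81 to 93.66 at P5 and 43.5 to 128.2 at P7, and 1 of its genes at 0 in every P7 library. At P7, 2 keratinocyte, 3 muscle and 3 adipocyte markers were at 0 in every library. The part of these cells in the differences from P1 was not tested, and each is therefore given from P3 as well. In bulk samples, fewer cells of a type and less RNA per cell cannot be told apart.

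From P1 to P7 the lamin B genes, Lbr, Tmpo and both HMGB genes fell, and Lmna, Emd and Sun1 did not pass the test. Of the 10 genes, 7 were lower at P7 than at P1 and 0 were higher, where 31.9% of 13442 genes were lower and 30.5% higher. The median log2 fold change of the 10 was -1.47, against -0.01 over all genes. Over 2-fold lower were 6 of the 10, against 13.3% of all genes. The plot of CPM by passage shows each library of each gene.

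Lmna, which encodes lamins A and C, had the most RNA of the set. It was measured at 848, 882, 757 and 914 CPM in the P1 libraries, 966, 794, 833 and 876 at P3, 821, 738, 947 and 1160 at P5, and 842, 937, 755 and 899 at P7. The 4 passages overlapped throughout, with 1 high library at P5. The level at P7 was 101% of that at P1, with a log2 fold change of 0.01 (SE 0.12, adjusted p = 0.927 from edgeR). The count table holds 1 value for the gene, so lamin A and lamin C were not separated.

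Lmnb1, the gene of lamin B1, fell at each step. It was measured at 92.7, 89.5, 93.7 and 92.3 CPM at P1, 81.3, 70.03, 87.3 and 77.6 at P3, 44.3, 28.8, 33.7 and 27.9 at P5, and 14.2, 15.4, 14.5 and 11.0 at P7. No passage overlapped the next. The P7 mean of 13.8 ± 1.94 CPM (SD, n = 4) was 15.0% of the P1 mean of 92.1 ± 1.79 CPM, with a log2 fold change of -2.74 (SE 0.14, adjusted p = 3.99e-12 from edgeR). From P1 to P3 the change of -0.22 did not pass (adjusted p = 0.172), although the 4 libraries of P3 all lay under those of P1. With only these 2 groups in the fit it was -0.23 and passed (adjusted p = 0.0174 from edgeR), which made 6 genes lower at P3 in place of 5. From P3 to P5 the log2 fold change was -1.23, and from P5 to P7 it was -1.29.

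Lmnb2, the gene of lamin B2, was already lower at P3. It was measured at 50.8, 52.1, 47.4 and 48.3 CPM at P1, 33.8, 28.9, 30.4 and 29.4 at P3, 19.5, 15.3, 24.1 and 21.5 at P5, and 16.9, 16.2, 15.2 and 14.6 at P7. All libraries of P3 lay under those of P1 and above those of P5, and P5 and P7 overlapped. The level at P3 was 61.7% of P1 and that at P7 31.7% (log2 fold change -1.66, SE 0.11, adjusted p = 2.62e-10 from edgeR). The last step, from P5 to P7, was -0.35 with an adjusted p of 0.0404, which leaving out single libraries or adding the replicate number as a block moved over the threshold.

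The ratios between the 3 lamin genes therefore changed. On values per kilobase of exon, the log2 ratio of Lmnb1 to Lmna was -2.89 ± 0.14 (SD, n = 4) at P1, -3.15 ± 0.14 at P3 and -5.66 ± 0.28 at P7. The ratio of Lmnb1 to Lmnb2 was 1.30 ± 0.086 at P1, rose to 1.78 ± 0.12 at P3 and was 0.21 ± 0.17 at P7. Lmnb1 thus had more RNA per length than Lmnb2 at P1 and P3, and 1.16 ± 0.13 times as much at P7 (SD, n = 4). Both ratios were lower at P7 than at P1 in every library (exact permutation test, 2-sided, p = 0.0286, the smallest that 4 against 4 allows, and 0.0327 adjusted over 8 ratio tests). The same p was found against P3.

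The proteins that bind the lamina from the inner membrane did not share 1 course. Lbr, which binds B-type lamins and heterochromatin, was measured at 79.3, 81.2, 73.4 and 76.2 CPM at P1, 53.9, 50.3, 57.3 and 50.8 at P3, 38.4, 30.1, 36.0 and 26.5 at P5, and 23.0, 23.8, 25.3 and 17.7 at P7. No passage overlapped the next, and P7 was at 28.9% of P1 (log2 fold change -1.79, SE 0.12, adjusted p = 1.38e-10 from edgeR). Tmpo, which encodes the LAP2 proteins, was measured at 227, 235, 214 and 225 CPM at P1, 153, 152, 169 and 169 at P3, 95.4, 67.7, 67.8 and 52.8 at P5, and 34.2, 34.0, 37.1 and 28.9 at P7. The passages again did not overlap, and P7 was at 14.9% of P1, a log2 fold change of -2.75 (SE 0.13, adjusted p = 3.53e-12 from edgeR). The exons of Tmpo share 72 bases with the tRNA gene n-TWcca2, so reads there cannot be assigned with certainty.

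Emd, the gene of emerin, had no called difference between P1 and P7. It was measured at 55.8, 57.5, 53.2 and 52.8 CPM at P1, 58.9, 57.6, 63.5 and 58.6 at P3, 59.9, 46.5, 53.8 and 52.8 at P5, and 49.4, 54.2, 48.6 and 43.6 at P7. P1 and P7 overlapped (log2 fold change -0.16, SE 0.09, adjusted p = 0.109 from edgeR). All P7 libraries lay under all P3 libraries, and that difference of -0.29 passed the test (adjusted p = 0.00996 from edgeR).

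The SUN proteins also differed from each other. Sun1 was measured at 66.6, 70.2, 66.7 and 70.1 CPM at P1 and at 65.1, 80.4, 67.3 and 71.7 at P7, with P3 and P5 between 66.6 and 79.1 CPM. The passages overlapped and the log2 fold change from P1 to P7 was 0.06 (SE 0.08, adjusted p = 0.551 from edgeR). Sun2 was measured at 139, 135, 139 and 161 CPM at P1, 134, 111, 121 and 139 at P3, 104, 91.0, 114 and 128 at P5, and 94.6, 127, 103 and 115 at P7. All P7 libraries lay under all P1 libraries, a fall of 0.39 on the log2 scale (SE 0.11, adjusted p = 0.00506 from edgeR), and P7 overlapped P3 and P5. The log2 ratio of Sun1 to Sun2 per length was -1.34 ± 0.10 at P1 and -0.90 ± 0.065 at P7 (exact permutation p = 0.0286, adjusted 0.0327), while the difference from P3 did not pass (exact p = 0.0857).

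Hmgb2 had the lowest log2 fold change of the 10 genes. It was measured at 55.1, 58.7, 58.2 and 48.0 CPM at P1, 37.5, 26.8, 39.0 and 32.8 at P3, 15.9, 14.6, 17.1 and 11.5 at P5, and 6.95, 5.48, 8.07 and 4.16 at P7. No passage overlapped the next. P7 was at 11.2% of P1, a log2 fold change of -3.16 (SE 0.17, adjusted p = 1.53e-11 from edgeR), which was the 429th lowest of 13442 genes.

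Hmgb1 fell as far as P5. It was measured at 164, 158, 171 and 157 CPM at P1, 132, 111, 130 and 124 at P3, 76.2, 71.9, 74.0 and 70.4 at P5, and 78.6, 50.8, 75.5 and 61.3 at P7. P1, P3 and P5 did not overlap, P5 and P7 did, and the last step of -0.14 did not pass (adjusted p = 0.423 from edgeR). P7 was at 40.9% of P1 (log2 fold change -1.29, SE 0.11, adjusted p = 4.05e-09 from edgeR). The log2 ratio of Hmgb2 to Hmgb1 per length was -1.36 ± 0.11 at P1, -1.67 ± 0.13 at P3 and -3.24 ± 0.31 at P7 (n = 4 each), lower at P7 than at P1 and at P3 in every library (exact permutation p = 0.0286, adjusted 0.0327). Hmgb1 has 12 annotated pseudogenes in RefSeq, of which 1 is in the count tables, with at most 0.0661% of their joint counts in any library.

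The steps of the course differed between genes. Against P1, 5 of the 10 genes were already lower at P3 (Lmnb2, Lbr, Tmpo, Hmgb1 and Hmgb2) and 0 were higher, where 17.5% of all genes were lower and 16% higher. At P5 there were 7 lower and 0 higher than at P1, against 26.1% and 25.1% of all genes. These comparisons share the P1 libraries. From P3 to P5, 6 were lower and 0 higher, against 15.3% and 13.4%. From P5 to P7, 5 were lower (Lmnb1, Lmnb2, Lbr, Tmpo and Hmgb2) and 0 higher, against 9.10% and 7.67%. The means of 6 of the 10 genes fell at each of the 3 steps, as did those of 16.8% of all genes, and 0 rose at each step.

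Counted from P3, where the macrophage, keratinocyte, adipocyte and endothelial lists were already lower than at P1, the fall was also found. The endothelial list was at 37.98 to 43.31 CPM and the macrophage list at 46.37 to 64.06 CPM at P3. At P7, 7 of the 10 genes were lower than at P3 and 0 higher, where 26.5% and 24.8% of all genes were. Over 2-fold lower were 4 (Lmnb1, Lbr, Tmpo and Hmgb2), against 7.41% of all genes. Lmnb1 was at 17.4% of its P3 level, Hmgb2 at 18.1% and Tmpo at 20.9%. Lbr was at 42.3%, Lmnb2 at 51.4% and Hmgb1 at 53.7%. With the libraries of P3 and P7 alone in the fit, 7 genes were still lower.

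Levels can be compared between genes only per length of exon. Per kilobase at P1, the order from highest to lowest was Lmna (241 CPM per kilobase), Hmgb1 (51.0), Sun2 (35.7), Lmnb1 (32.4), Tmpo (29.4), Emd (22.9), Lbr (20.6), Hmgb2 (19.9), Sun1 (14.1) and Lmnb2 (13.1). Among neighbours in this order, the libraries of Lbr and Hmgb2 overlapped, as did those of Sun1 and Lmnb2, and the libraries of the other neighbours did not. At P7, Lmna stood at 244, and Sun2 (27.4), Hmgb1 (20.8), Emd (20.4) and Sun1 (14.7) lay above Lbr (5.95), Lmnb1 (4.85), Tmpo (4.38), Lmnb2 (4.16) and Hmgb2 (2.24). There the libraries of Sun2, Hmgb1 and Emd overlapped from neighbour to neighbour, and so did those of Lbr, Lmnb1, Tmpo and Lmnb2, while Lmna, Sun1 and Hmgb2 stood apart from their neighbours.

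Across the 16 passage libraries, the log2 CPM of Lmnb1, Lmnb2, Lbr, Tmpo, Hmgb1 and Hmgb2 had Pearson r between 0.901 and 0.990 with each other. Lmna had r between -0.184 and 0.04 with these genes, and 0.528 with Sun1. The points are 4 passages of 4 libraries and not 16 independent samples, so these values describe the shared course and carry no test. Of 9582 genes with an average log2 CPM of at least 3, the closest to Lmnb1 were Cdca3 (r = 0.9986), Cdca8 (0.9949) and Bub1b (0.9944). Among the closest to Hmgb2 were Clspn (0.9895) and Arhgap19 (0.9866), and the closest to Lmna were Rhbdf1 (0.9143), Tmem43 (0.8937) and Vps37b (0.8672).

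Other genes of the nuclear periphery were counted from lists, and list members are not replicates. Of 10 tested LEM-domain and other inner membrane genes, 5 were lower at P7 than at P1 and 0 higher (median log2 fold change -0.22), where 31.9% of all genes were lower and 30.5% higher. Nemp1 was at -1.98 and Nrm at -1.57. Of 28 tested nuclear pore genes, 22 were lower and 1 higher (median -0.82), among them Ndc1, which anchors the pore in the membrane, at -1.43 and Nup85, a scaffold subunit, at -1.25. The 1 that rose was Sec13 at 0.43, which also serves the COPII coat. Of 4 tested LINC complex partners, the nesprin genes Syne2 (-2.56) and Syne3 (-1.36) were lower and Tor1a (0.24) was higher. Of 5 enzymes that process prelamin A, Rce1 (-0.42) was lower, Icmt (0.66) and Fnta (0.71) were higher, and Zmpste24, the protease that removes the tail, did not pass (-0.18, adjusted p = 0.138 from edgeR).

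Against the same shares of all genes, 5 of 9 other high mobility group genes were lower and 1 higher at P7 than at P1 (median -0.79), with Hmgb3 at -2.10, Hmgn2 at -2.08 and Hmga1 at -1.24, and with Hmg20b higher at 0.60. Of 11 genes of heterochromatin proteins and H3K9 methyltransferases, 8 were lower and 0 higher (median -0.64). These included the methyltransferase genes Suv39h2 (-1.75) and Suv39h1 (-1.62) and Cbx5 (-1.29), which encodes HP1 alpha. As a reference for the cell cycle, all 12 listed genes of dividing cells were lower (median -2.61), with Mki67, a proliferation marker, at -3.96 on the log2 scale. Cdkn2a and Cdkn1a, which encode inhibitors of cyclin-dependent kinases, were higher by 4.79 and 1.53.

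Promoter accessibility was read from the ATAC-seq peaks. For each sample, the strongest peak within 1000 bases of a curated start site was taken, and its percentile is the percent of all peaks of that sample with a lower −log10 p. The percentile was used because the depth of these samples is unknown, and it also moves with the number of peaks in a list, which was 168982 to 186562 at P1 and 200376 to 231558 at P7. All 10 genes had a promoter peak in all 13 samples, and over the samples 9 of them lay above the median gene, at a percentile of 82.8.

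The promoter peaks of Lmnb1 and Tmpo were lower in rank at P7, and that of Hmgb2 stood near the top of the scale throughout. The strongest Lmnb1 peak was at percentiles 89.0, 93.1, 89.8 and 86.2 in the P1 samples, 91.3, 87.0 and 89.7 at P3, 82.8, 82.5 and 82.6 at P5, and 75.9, 77.1 and 76.8 at P7. P1 and P3 overlapped, P5 lay under both and P7 under P5. The fall of 12.9 points from P1 to P7 had the smallest p that 4 against 3 samples allow (exact permutation test, 2-sided, p = 0.0286), which was 0.0857 adjusted over all genes. The Tmpo peak was at 87.2, 90.8, 86.0 and 88.7 at P1, 85.6, 72.1 and 87.8 at P3, 81.1, 81.6 and 84.3 at P5, and 74.3, 67.4 and 79.9 at P7. Its P7 samples lay under all P1 and all P5 samples, with 1 low sample at P3, and fell by 14.3 points from P1 (exact p = 0.0286, adjusted 0.0857).

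The Hmgb2 peak was among the strongest of the genome at all passages, at 99.7, 99.6, 99.8 and 99.7 at P1 and 99.7, 99.8 and 99.8 at P7. The groups overlapped (exact permutation p = 0.629), on a scale that leaves no room above these values. The fold enrichment of the Hmgb2 peak was 15.3 ± 0.358 (SD, n = 4) at P1 and 21.5 ± 1.95 (n = 3) at P7, without overlap. Fold enrichment was also higher at P7 without overlap for Lmnb2 (10.8 to 11.9 at P1, 14 to 14.8 at P7). So it was for Hmgb1 (13.6 to 14.2, then 17.2 to 20) and Emd (11.7 to 12.9, then 13.1 to 13.9). The share of all genes is not given here. Ranked by fold enrichment, the Hmgb2 peak was higher at P7 by 2.197 points (exact p = 0.0286). Hmgb1 was at 98.0 ± 0.116 (SD, n = 4) at P1 and 98.7 ± 0.144 (n = 3) at P7, with no overlap and exact p = 0.0286. The part that the longer peak lists of P7 had in this move of rank was not tested.

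Of the 10 promoters, 3 were lower at P7 than at P1 without overlap of samples (Lmnb1, Tmpo and Sun1), where 29.0% of 18779 genes were, and 2 were higher (Hmgb1 and Emd), where 13.3% were. The shares are close to those of all genes. Sun1 moved by -0.75 points from 99.2, Emd by 1.25 from 95.5 (exact permutation p = 0.0571), and Lmna, Lmnb2, Lbr and Sun2 overlapped between P1 and P7. Lmnb2 started at 87.2 ± 2.25 (P1), stood at 79.4 ± 4.64 (P3) and 81.3 ± 2.50 (P5), and was back at 86.6 ± 2.87 by P7, the passage at which its RNA was lowest. Ranked by fold enrichment in place of −log10 p, 1 promoter and not 3 was lower without overlap, and Lmnb1 had an exact p of 0.0571 and Tmpo of 0.114. The mean fold enrichment itself was 7.39 at P1 and 7.29 at P7 for Lmnb1, and 6.72 and 6.53 for Tmpo.

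**Figure D1:**
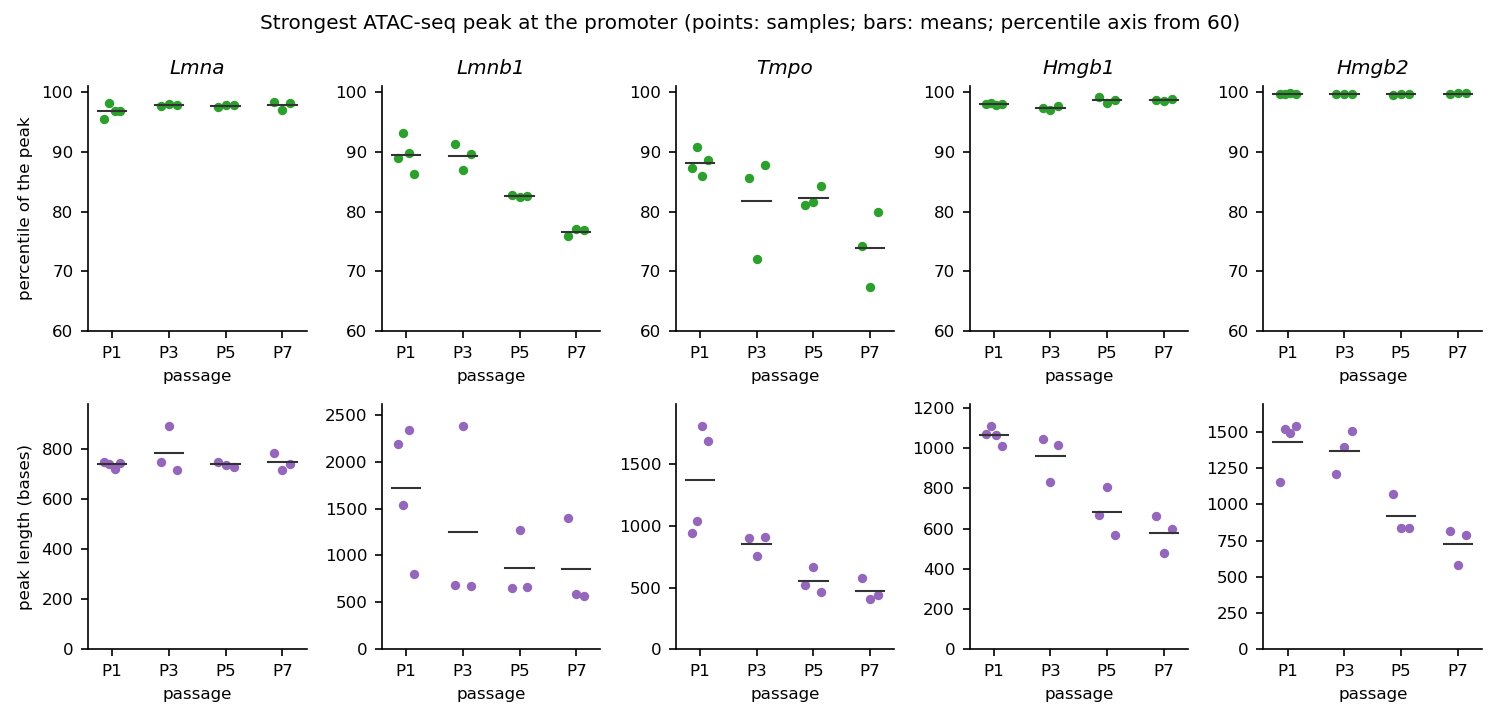
Strongest promoter ATAC-seq peak of Lmna, Lmnb1, Tmpo, Hmgb1 and Hmgb2 by passage. The panels give its percentile among all peaks of the sample (axis from 60) and its length in bases, with 1 point per sample (4 at P1, 3 at each later passage). Lmnb1 and Tmpo fell in percentile to means of 76.6 and 73.9 at P7, while the peaks of Hmgb1 and Hmgb2 stayed above 97 and became shorter.

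The length of the same peaks was measured as well, which was added after the data were seen. The Hmgb2 promoter peak was 1158, 1523, 1494 and 1541 bases long in the P1 samples and 817, 580 and 792 at P7, so its P7 mean of 729.7 bases was 51.1% of that at P1 (exact permutation p = 0.0286, adjusted over all genes 0.0926). The Tmpo peak was 946, 1041, 1810 and 1693 bases long at P1 and 577, 403 and 441 at P7, 34.5% of P1 (exact p = 0.0571). The Hmgb1 peak was 1070, 1109, 1067 and 1011 bases long at P1 and 660, 480 and 597 at P7, 54.4% of P1 (exact p = 0.0286). In these 3 genes no P7 sample reached a P1 sample.

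The Lmna peak was 748, 741, 721 and 744 bases long at P1 and 783, 716 and 738 at P7, so it kept its length at 101%. The Lmnb1 peak varied within passages, at 2192, 1536, 2341 and 798 bases at P1 and 1403, 585 and 567 at P7, and the groups overlapped (exact permutation p = 0.114). In all, 6 of the 10 peaks were shorter at P7 without overlap (Lbr, Tmpo, Emd, Sun1, Hmgb1 and Hmgb2) and 0 were longer. Among all genes 43.7% were shorter and 0.892% longer, and their median length was 1183 bases at P1 and 864.7 at P7, or 78.0%. The median promoter peak was also shorter as a whole in these samples, with 1115 to 1226 bases per sample at P1 and 682 to 986 at P7. The part of that shift in the lengths of single genes was not tested. A ratio under that of Tmpo was found in 1.98% of genes and one under that of Hmgb2 in 9.95%, whereas 92.6% of genes had a ratio under that of Lmna.

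Over the whole loci, from 5000 bases upstream of each gene to its end, peaks merged into 57 regions. Of these, 30 were found in over 60% of the replicates of each passage. The region at chr3:88513838-88514642, upstream of Lmna and at -10888 bases from the nearest start, had a peak in 4 of 4 P1 samples, 1 of 3 P5 samples and no P3 or P7 sample. The region at chr18:56733993-56734534 inside Lmnb1, 26450 bases after its start, had a peak in 0 of 4 P1 samples and in 3 of 3 samples at each later passage. Regions of the same kind, absent at P1 and found in over 60% of P7 samples, were chr1:181838736-181838954 in Lbr, chrX:74260476-74260890 in Emd, chr5:139198852-139199210 near Sun1 and chr15:79734669-79735003 in Sun2. The P7 lists were longer than those of P1, with 200376 to 231558 peaks against 168982 to 186562. The part of this in the gained regions was not tested, and the share of such regions over the genome is not given here.

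Raising E2f4, which encodes an E2F factor best known from the DREAM complex at cell cycle promoters, went with higher RNA of 9 of the 10 genes. E2f4 itself was at 1118 to 1180 CPM in E2f4_OE and 35.5 to 47.5 CPM in its control, where the counts include the cDNA of the vector. In this comparison 9 genes were higher and 0 lower, where 28.9% of 13199 genes were higher and 28.2% lower. The median log2 fold change of the 10 was 0.82, against 0.01 over all genes. Over 2-fold higher were Lmnb1, Lmnb2 and Hmgb2, or 3 of 10, against 7.69% of all genes.

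Lmnb1 was at 38.0 and 39.8 CPM in the control and 98.9 and 107 in E2f4_OE, a log2 fold change of 1.40 (SE 0.11, adjusted p = 1.01e-05 from edgeR). Lmnb2 was at 16.6 and 19.3 CPM against 50.8 and 54.5 (log2 fold change 1.55, SE 0.13, adjusted p = 1.23e-05 from edgeR). Hmgb2 was at 31.8 and 40.5 CPM against 98.4 and 90.3 (log2 fold change 1.39, SE 0.14, adjusted p = 2.51e-05 from edgeR). In all 10 genes both E2f4_OE libraries lay above both controls, as they did in 41.2% of all genes.

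Lmna and Emd, which were not lower at P7 than at P1, and Sun2, which was, rose here as well. Lmna was at 639 and 691 CPM in the control and 1114 and 1181 with E2f4, a log2 fold change of 0.79 (SE 0.10, adjusted p = 9.18e-05 from edgeR). Emd was at 48.2 and 59.8 CPM against 99.5 and 111, a log2 fold change of 0.97, and Sun2 at 74.8 and 84.4 against 137 and 142, one of 0.81. Sun1 alone did not pass, at 83.8 and 82.2 CPM against 96.5 and 101 (log2 fold change 0.25, adjusted p = 0.0615 from edgeR). Tmpo, at 128 and 118 CPM against 232 and 207, rose by 0.83 on the log2 scale, and Lbr and Hmgb1 by 0.75 each.

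In the same libraries, 10 of 12 reference genes of dividing cells were higher and 0 lower, but Mki67 did not pass (log2 fold change 0.04). Of the other lists, 6 of 10 inner membrane genes were higher and 1 lower, with Nrm at 1.43, and 11 of 29 nuclear pore genes were higher and 3 lower. Among all genes 28.9% were higher and 28.2% lower. Of 9 other high mobility group genes 4 were higher, with Hmga1 at 1.92 and Hmgb3 at 1.53, and 2 lower. Of 11 heterochromatin genes 4 were higher, with Trim28 at 0.87 and Suv39h1 at 0.82, and 0 lower. Syne1 was lower (-0.97), and Syne3 (1.25) and Tor1a (0.39) were higher, among 4 LINC partners. Of 5 enzymes of prelamin A, 1 was higher and 1 lower. Muscle markers summed to 67.71 to 77.63 CPM in the control and 23.23 to 24.28 with E2f4, with 5 of 9 at 0 in each group, and their part was not tested.

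**Figure D2:**
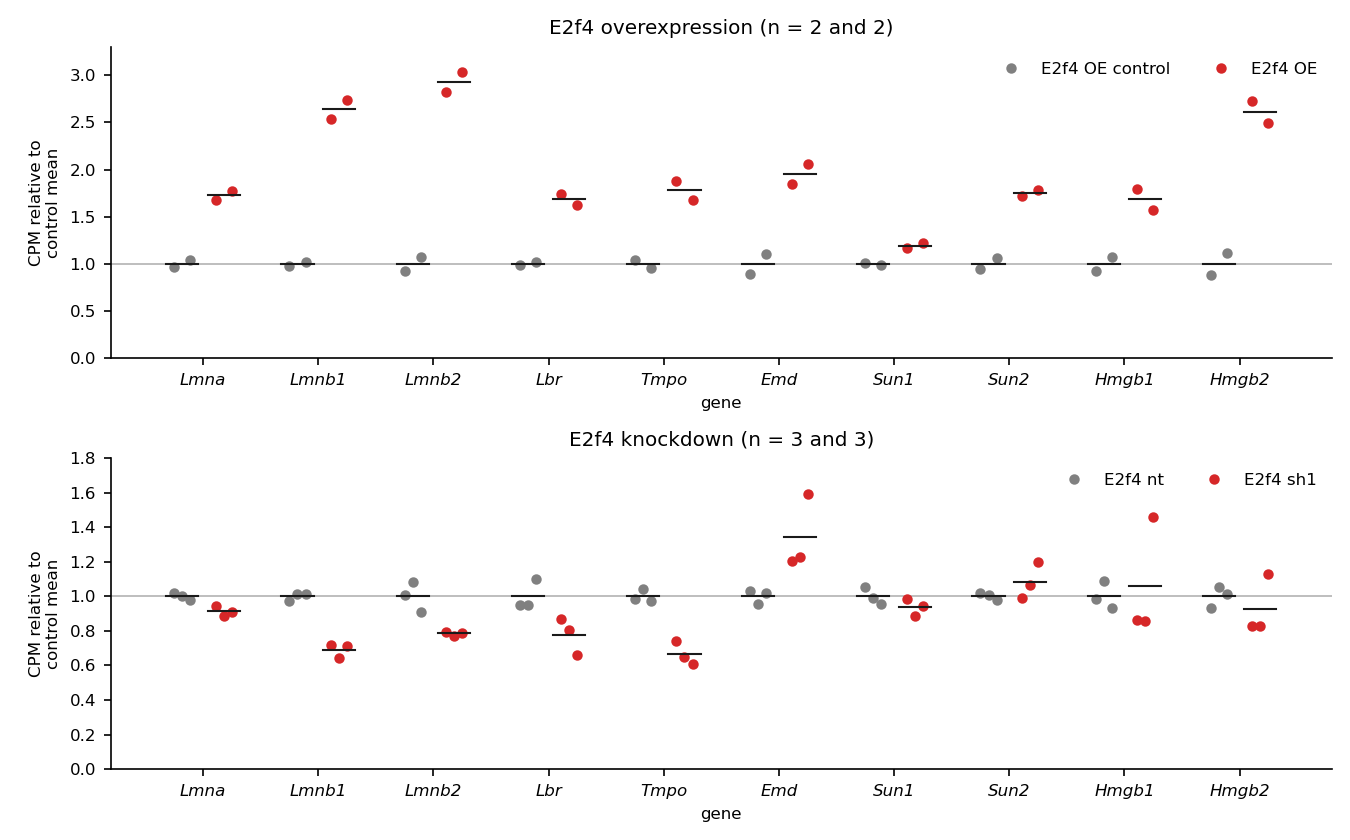
CPM of each of the 10 genes relative to the mean of its control group (y axis), with 1 point per library, for E2f4 overexpression (2 against 2 libraries) and E2f4 knockdown with sh1 (3 against 3). With overexpression both libraries lay above both controls in all 10 genes (41.2% of all genes did). With knockdown, the 3 libraries of Lmna, Lmnb1, Lmnb2, Lbr and Tmpo lay below their controls (17.6% of all genes did).

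Lowering E2f4 with sh1 gave smaller changes, in 5 of the 10 genes. E2f4 was at 20.4 to 21.8 CPM against 59.6 to 60.8 in the control. Here 4 of the 10 genes were lower and 1 higher, against 7.79% and 10% of 12310 genes, with a median log2 fold change of -0.12 against -0.01. Marker lists also differed without overlap in these libraries. The fibroblast list (8 genes, none at 0) summed to 24260 to 27830 CPM with sh1 and 31970 to 32890 in the control. The muscle list (9 genes, 5 and 3 at 0) summed to 112.3 to 136.2 against 75.39 to 76.69, and the macrophage list (10 genes, 0 and 1 at 0) to 14.34 to 21.23 against 5.71 to 11.75 CPM. Their part was not tested. Lmnb1 was at 56.3, 58.4 and 58.6 CPM in E2f4_nt and 41.5, 37.2 and 41.1 in E2f4_sh1, a log2 fold change of -0.53 (SE 0.09, adjusted p = 0.000639 from edgeR). Tmpo was at 124, 131 and 122 CPM against 93.3, 81.4 and 76.7, at 0.666 times its control (SE 0.08 on the log2 scale, adjusted p = 0.000164 from edgeR). In both genes the groups were well apart.

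Lmnb2 was at 34.5, 37.0 and 31.0 CPM against 27.1, 26.4 and 26.9 (log2 fold change -0.35, adjusted p = 0.0239 from edgeR), and Lbr at 49.1, 49.2 and 56.8 against 45.0, 41.5 and 34.3 (-0.36, adjusted p = 0.0307 from edgeR). Emd was higher, at 52.5, 48.4 and 51.7 CPM against 61.2, 62.5 and 81.0 (0.42, adjusted p = 0.0119 from edgeR). No library of these 3 genes overlapped its control. The count of 5 was 2 without replicate 2 of E2f4_nt and 3 without its replicate 1 or without replicate 2 of E2f4_sh1. Lbr did not pass without replicate 1, 2 or 3 of E2f4_nt, or without replicate 2 or 3 of E2f4_sh1. Its adjusted p from edgeR was then 0.0501 to 0.159. Lmnb2 did not pass in 3 such fits (adjusted p 0.077 to 0.129 from edgeR), and Emd not without replicate 2 of E2f4_nt (0.0597).

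Hmgb1 and Hmgb2 did not pass in E2f4_sh1, and 1 library stood apart in both. Hmgb1 was at 72.5, 80.1 and 68.8 CPM in the control and 63.6, 63.1 and 108 with sh1, where replicate 3 stood apart (log2 fold change 0.08, adjusted p = 0.776 from edgeR). Without that library it was -0.21 (adjusted p = 0.0545 from edgeR). Hmgb2 was at 27.2, 30.7 and 29.5 CPM against 24.2, 24.1 and 32.9, with the same library high (-0.11, adjusted p = 0.599). Replicate 3 of E2f4_sh1 stood apart over all genes too. Chi-squared per degree of freedom was 12.03 and 10.49 in its pairs with the other sh1 libraries and 3.305 in the remaining pair. It also held the highest Emd and the lowest Lbr value of E2f4_sh1. In these libraries 10 of 12 reference genes of dividing cells were lower and 0 higher, Mki67 by 0.57 on the log2 scale. Of 28 nuclear pore genes 10 were lower and 1 higher, where 7.79% of all genes were lower and 10% higher. Of 11 heterochromatin genes 4 were lower (Setdb1, Suv39h1, Trim28 and Cbx5) and 0 higher, and of 10 inner membrane genes 1 was lower and 3 higher. Syne2 (-0.61) was lower among the LINC partners, Hmgn2 (-0.34) among the other high mobility group genes, and 0 of 5 prelamin enzymes passed.

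**Figure D3:**
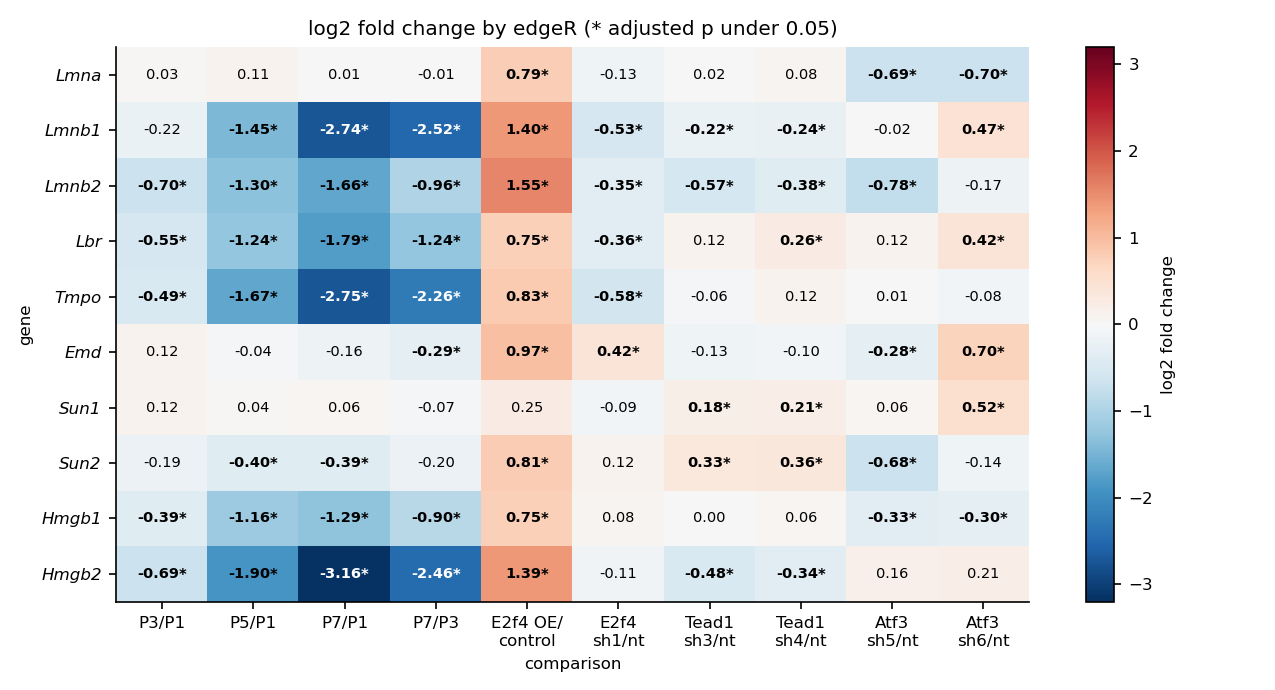
Log2 fold changes of the 10 genes (rows) in 10 comparisons (columns) as colours and printed values, with an asterisk where the adjusted p from edgeR was under 0.05. The passage columns are negative for Lmnb1, Lmnb2, Lbr, Tmpo, Hmgb1 and Hmgb2, and the column of E2f4 overexpression is positive for all 10 genes.

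The Tead1 hairpins share their controls, and Tead1, a factor of the Hippo pathway, was lower by 0.96 on the log2 scale with sh3 and by 0.78 with sh4. With sh3, 3 of the 10 genes were lower and 2 higher, against 17.7% and 17.6% of 13012 genes. With sh4, 3 were lower and 3 higher, against 14.7% and 14.4%. The medians of the 10 were -0.03 and 0.07. Lmnb1, Lmnb2 and Hmgb2 were lower and Sun1 and Sun2 higher with each hairpin, and Lbr was higher with sh4. The muscle list summed to 98.7 to 100.5 CPM in the control, 65.53 to 75.91 with sh3 and 74.84 to 84.62 with sh4 (9 genes, with 3, 4 and 3 at 0). The fibroblast list summed to 29840 to 30780, 27890 to 28570 and 26690 to 27590 CPM (8 genes, none at 0). The part of these lists was not tested.

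Lmnb2 was at 32.0, 27.6 and 33.0 CPM in Tead1_nt, 19.4, 19.2 and 23.9 with sh3 and 23.0, 25.3 and 22.8 with sh4 (log2 fold changes -0.57 and -0.38). Hmgb2 was at 37.0, 34.6 and 37.1 CPM in the control, 25.7, 25.7 and 26.7 with sh3 and 30.3, 27.7 and 28.1 with sh4 (-0.48 and -0.34). Sun2 was at 104, 105 and 114 CPM in the control, 136, 135 and 133 with sh3 and 138, 134 and 142 with sh4 (0.33 and 0.36). In each of these genes neither hairpin overlapped the control, and the adjusted p from edgeR was at most 0.000894. Lmnb1 was at 51.2, 48.0 and 48.9 CPM in the control, 41.9, 42.3 and 42.8 with sh3 and 44.2, 38.2 and 42.5 with sh4 (-0.22 and -0.24), again without overlap (adjusted p = 0.00507 and 0.00271 from edgeR).

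Between the Tead1 hairpins, 1 of the 10 genes differed (Tmpo, higher with sh4) and 0 were lower with sh4, against 3.34% and 4.03% of all genes. Tmpo was at 95.8, 91.9 and 98.2 CPM in the control, 89.1, 93.9 and 91.2 with sh3 and 99.8, 104 and 107 with sh4, so that sh4 lay above sh3 by 0.18 on the log2 scale (adjusted p = 0.0175 from edgeR) and neither hairpin passed against the control. Without replicate 1 or 3 of Tead1_sh3, or replicate 3 of Tead1_sh4, 0 genes differed. Lmna and Hmgb1 did not pass with either hairpin. Of 28 tested nuclear pore genes, 6 were lower and 2 higher with sh3, against 17.7% and 17.6% of all genes. With sh4, 5 were lower and 3 higher, against 14.7% and 14.4%.

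The Atf3 hairpins share their controls too, and the knockdown of Atf3, a stress-induced factor of the ATF family, is known with less precision. Atf3 was at 2.77 to 3.31 CPM in Atf3_nt, and its log2 fold change was -1.14 with sh5 (adjusted p = 0.0447 from edgeR) and -0.79 with sh6 (adjusted p = 0.114). With sh5, 5 of the 10 genes were lower and 0 higher, against 18.1% and 17.7% of 13345 genes. With sh6, 2 were lower and 4 higher, against 26.0% and 23.8%. Lmna and Hmgb1 were lower with each hairpin.

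Lmna was at 940, 1016 and 1057 CPM in Atf3_nt, 719, 748 and 407 with sh5 and 680, 616 and 565 with sh6. All hairpin libraries lay under all controls, replicate 3 of sh5 lowest, with log2 fold changes of -0.69 (adjusted p = 0.0185) and -0.70 (adjusted p = 0.0107, both from edgeR). Hmgb1 was at 90.6, 88.1 and 91.7 CPM in the control, 70.4, 77.4 and 66.7 with sh5 and 82.2, 68.7 and 69.0 with sh6. Its log2 fold changes were -0.33 and -0.30 (adjusted p = 0.0183 and 0.0201 from edgeR). With sh6 it did not pass without replicate 1 or 3 of Atf3_nt or replicate 2 or 3 of Atf3_sh6 (adjusted p 0.0562 to 0.0882 from edgeR). With sh5 it did not pass without replicate 1, 2 or 3 of Atf3_nt. Sun2 passed with sh5, at 80.0, 81.2 and 38.3 CPM against 100, 108 and 112 (-0.68, adjusted p = 0.0369 from edgeR), with replicate 3 apart. That library stood apart over all genes too. Between sh5 libraries, chi-squared per degree of freedom was 59.37 and 63.67 in the pairs with replicate 3 and 3.286 in the other pair. The count of 5 with sh5 was 0 without replicate 2 of Atf3_nt, 1 without its replicate 3 and 3 without its replicate 1, and 2 when the fit held only these 2 groups.

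Emd went opposite ways with the hairpins. It was at 60.4, 64.3 and 68.0 CPM in Atf3_nt, 52.2, 54.9 and 52.0 with sh5 and 105, 104 and 105 with sh6. The 3 groups did not overlap, and the log2 fold changes were -0.28 and 0.70 (adjusted p = 0.0146 and 2.13e-05 from edgeR). With sh5, Emd did not pass without replicate 2 or 3 of Atf3_nt, or with only these 2 groups in the fit. Its adjusted p from edgeR was then 0.0519 to 0.0714. Sun1 was at 71.3, 72.4 and 67.7 CPM in the control, 76.4, 70.5 and 74.0 with sh5 and 107, 98.1 and 98.7 with sh6, higher with sh6 by 0.52 on the log2 scale (adjusted p = 0.000176 from edgeR). Lmnb1 (0.47) and Lbr (0.42) were also higher with sh6, and Lmnb2 (-0.78) was lower with sh5.

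Tested against each other, 5 of the 10 genes were higher with sh6 than with sh5 (Lmnb1, Lmnb2, Lbr, Emd and Sun1) and 0 lower, against 25.9% and 26.6% of all genes. The difference was 0.98 in Emd (SE 0.07, adjusted p = 2.76e-06 from edgeR). The fibroblast markers (8 genes, none at 0) summed to 14550 to 14990 CPM with sh6 and 34080 to 35550 CPM in the control, and the muscle markers (9 genes, 3 at 0 in each group) to 200.1 to 217.7 and 38.41 to 39.9 CPM. With sh5 they summed to 22100 to 32010 CPM (fibroblast) and 17.82 to 18.93 CPM (muscle, 4 at 0). Their part in these differences was not tested. Of 28 tested nuclear pore genes, 5 were lower and 10 higher with sh5, against 18.1% and 17.7% of all genes. With sh6, 4 were lower and 15 higher, against 26.0% and 23.8%.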

How the data were processed

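The passage, E2f4, Tead1 and Atf3 RNA-seq libraries (44) and the passage ATAC-seq samples (13) were used. For 18 bisulfite samples (RRBS) no file was used here. The 10 genes and the gene lists were chosen with earlier results of these data known.

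For RNA-seq, the authors used Trimmomatic 0.39 for trimming, HISAT2 2.2.1 for mapping to mm10 and unstranded HTSeq 0.12.4 for counting. What they deposited are raw counts of 24984 genes per library. Summary lines that name no gene, which held 7.5% to 16.8% of the counts in 28 libraries, were left out. For ATAC-seq, the authors aligned reads with Bowtie2 2.3.5.1 and called peaks with MACS2 in each sample separately. The deposited fold enrichment is the ratio of the signal at the summit of a peak to its local background, and the deposited −log10 p and −log10 q come from the same caller. The peak lists hold no read counts, so their depth is unknown.

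Each RNA-seq experiment was fitted on its own with all its groups in edgeR 4.0.16 (R 4.3.3), using filterByExpr, TMM scaling, the quasi-likelihood test and Benjamini-Hochberg adjustment, and the script was tested on simulated data. CPM values per length used the exons of RefSeq on GRCm38, the assembly of mm10. Ratios of genes and ATAC-seq values were compared with exact 2-sided permutation tests over samples. Peak entries that shared coordinates were reduced to 1 peak with its strongest summit, and a start site was a curated RefSeq one. Genes outside the 10 were named when they had the lowest or highest changes of a list that passed, were the targeted or reference genes, or were closest in course to Lmnb1, Hmgb2 or Lmna, and some further list members were named after their values were seen. A gene that this rule names is not reported here. Replicates spread more than counting error. In no comparison with 3 or more pairs did the deviations of same-numbered libraries correlate over 0.1 in every pair, so the replicate numbers were not used as pairs. The alternatives were DESeq2 1.42.0 and its size factors, other filters, the 2 groups alone, a replicate block, other peak thresholds, windows and measures, and each library left out in turn.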

Additional observations from a re-analysis of the deposited data

Results flagged for a closer look

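Outlying samples were looked for in 60 groups of 4 samples, of which chance flags about 1 in 20, and 4 were found. Sun2 was at 160.6 CPM in replicate 4 of P1, where the nearest library was at 139.4. The promoter peak of Sun1 was at a percentile of 99.06 in replicate 2 of the P1 ATAC-seq samples, under the nearest at 99.24. That of Hmgb2 was at 99.84 in replicate 3 of P1, above the nearest at 99.65, and it was 1158 bases long in replicate 1 of P1, where the nearest was 1494.

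The 2 hairpins against 1 factor differed from each other in 6 cases by the edgeR test of the difference itself. Tmpo was higher with Tead1_sh4 than with Tead1_sh3 by 0.179 on the log2 scale (adjusted p = 0.0175), with -0.06 for sh3 and 0.12 for sh4 against the control. With Atf3_sh6 against Atf3_sh5, Emd was higher by 0.979 (adjusted p = 2.76e-06), Lmnb2 by 0.615 (0.0207), Lmnb1 by 0.493 (0.000943), Sun1 by 0.46 (0.00044) and Lbr by 0.302 (0.00629). Emd had opposite signs against the shared control, with -0.28 for sh5 and 0.70 for sh6.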

How the results depend on the processing

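Over the alternatives, 2142 values were recomputed. Of these, 2046 kept their side of the threshold and, where called, their direction (or, for counts, stayed within 1.5 times). A further 71 lost the threshold, 14 gained it, 11 counts moved and 0 called values changed sign. The 2046 include values that were not called and changed sign. Among RNA-seq values that were not called, 42 changed sign, the largest at 0.214 on the log2 scale. Among such ATAC-seq values, 2 changed sign with a sample left out and 3 when peaks were ranked by fold enrichment. The number of the 10 genes that passed for Atf3_sh5 against Atf3_nt was 5, and 2 with only the 2 groups compared in the fit. Leaving out single libraries gave 0 to 5 for Atf3_sh5, 2 to 5 for E2f4_sh1 against E2f4_nt and 0 to 1 for Tead1_sh4 against Tead1_sh3, with fewer samples in each fit. Promoters lower at P7 than at P1 without overlap numbered 1 in place of 3 when peaks were ranked by fold enrichment, and the cause was not tested. With a sample left out, 28 ATAC-seq values lost the threshold because the design then allows no exact p under 0.05. With a replicate block, 4 in place of 5 genes passed for P7 against P5 (Lmnb2 at an adjusted p of 0.0526), 10 in place of 9 for E2f4_OE (Sun1 at 0.0219) and 6 in place of 5 for Atf3_sh6 against Atf3_sh5, and in the other comparisons the number stayed the same. Same-numbered libraries had correlations of deviations between 0.0785 and 0.267 for P3 against P1 and between 0.0303 and 0.175 for P7 against P1. Each library correlated best with its own number in these 2 comparisons and, of those with 3 pairs, in E2f4_sh1 (0.0232 to 0.0342) and Tead1_sh4 (0.0268 to 0.112) against their controls, as a hint from the data and not from the design. P7 against P3 without P1 in the fit and the peak length were chosen after seeing the data.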
